A study of Mus musculus with 80 samples.

Results

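The effect of transcription and translation inhibitors on whole brain cell suspensions was taken from the Cell-Input libraries of the inhibitor experiment. These are 8 of the 80 libraries of the study, chosen by their titles. Cell-Input (−) Inhibitors and Cell-Input (+) Inhibitors each had n = 4, from the animals numbered 1361, 1362, 156 and 157, and each animal gave a library of both kinds. All mice had the genotype labelled Cx3cr1(Jung)-cre/Ert2+;NuTRAP+, which the methods of the study write as Cx3cr1-cre/ERT2+/wt and NuTRAP flox/wt, a single copy of each allele. They were of both sexes and had received tamoxifen at 100 mg/kg, given daily by intraperitoneal injection from about 3 months of age, and brains were taken between 5 and 8 months of age. In this model Cre is expressed from the Cx3cr1 promoter, so that the ribosome and nuclear tags of the NuTRAP cassette are switched on in microglia and in other cells that use this promoter. Input is the RNA of the lysate before the tagged ribosomes are pulled down, and so holds the transcripts of every cell type in the suspension. Suspensions were made from brain hemispheres by papain digestion with mechanical dissociation for 30 min at 37 °C. For the (+) Inhibitors group actinomycin D (5 µg/ml) and triptolide (10 µM), which block transcription, and anisomycin (10 µg/ml), which blocks translation, were added for that step. The inhibitor stocks were dissolved in DMSO, and whether the (−) Inhibitors hemispheres received DMSO alone is not given in the sources used here.

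Immediate-early genes are genes that a cell can switch on within minutes of a stimulus without making new protein. Many encode transcription factors such as Fos and Egr1, which act on a later set of targets, and others encode proteins that shut the response down again, such as the phosphatase Dusp1 and the mRNA-decay factor Zfp36. Many of their transcripts carry AU-rich elements in the 3′ UTR that mark them for rapid decay, so their levels depend on continued transcription. In microglia the same stimuli also induce cytokines such as Tnf and Il1b and chemokines such as Ccl3 and Ccl4. The comparison asks which transcripts of the whole suspension differ in level when the inhibitors are present during the digestion.

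Levels are given as CPM, the counts of a gene scaled to a common library total, adjusted by the trimmed mean of M-values (TMM), with ± for the SD over the 4 libraries of a group. The log2 fold changes, each with its SE, are of (+) Inhibitors against (−) Inhibitors within animals, from edgeR's quasi-likelihood test, and FDR is the Benjamini-Hochberg adjusted p-value over all genes tested. A gene was called at FDR under 0.1 and a fold change above 2. Counts over the listed genes ranged from 8875555 to 10189396 in the (−) Inhibitors libraries and from 10510018 to 11262747 in the (+) Inhibitors libraries, and the (+) Inhibitors library was the deeper of the pair in all 4 animals. The TMM factors ranged from 0.972 to 1.026. Y-linked genes were present in 2 of the 4 animals, and the libraries of a pair matched in all 4.

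Of the 16000 genes listed, 14774 were tested. With inhibitors 50 genes were lower, 0.338% of those tested, and 0 genes were higher (0%). In order of fold change, the genes lower by more than 16-fold were Fos, Fosb, Egr2, Ccl4, Egr1, Atf3, Ccl2, Nfkbid, Ccl3, Cxcl2 and Ccl7, of which 5 are transcription factors of the early response and 5 are chemokines. The (−) and (+) Inhibitors libraries did not overlap in any of the 50 genes, whereas every (+) Inhibitors library was below every (−) Inhibitors library in 224 of all genes tested (1.52%). Log2 fold changes of the 50 genes had a median of −2.42 and ranged from −6.21 to −1.06. Among them 11 genes were lower by more than 16-fold, 21 by more than 8-fold and 31 by more than 4-fold. At an unadjusted p under 0.05, 306 genes were lower and 134 higher. DESeq2 called 53 genes lower and 0 higher, with 51 higher at an unadjusted p under 0.05, and limma on the log2 values called 46 lower and 0 higher, with 234 higher at that level. The precision of the comparison was a median SE of 0.146, and the 95% interval of the log2 fold change lay within 2-fold either way for 12523 genes (84.8%). The SE was computed from the log2 fold change and the F statistic of the test. It is unreliable for changes very close to 0, as in Tgfb2, with an SE of 7.74 at a log2 fold change of 7.7e-06. Such genes are left out of the count of intervals within 2-fold. Over all genes tested the median was −0.000891.

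**Figure D1:**
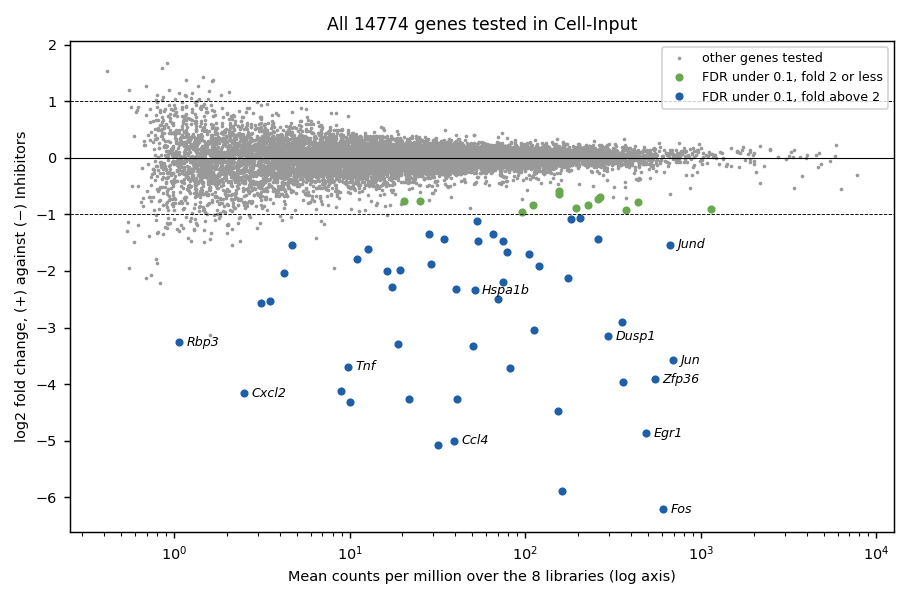
Mean CPM over the 8 Cell-Input libraries (log axis) against the log2 fold change of (+) against (−) Inhibitors for the 14774 genes tested, with each gene as a point. The 50 called genes (blue) and the 13 genes with FDR under 0.1 at a smaller fold (green) all lie below 0.

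Together the 50 genes held 10875, 14928, 8760 and 11079 CPM in the (−) Inhibitors libraries of animals 1361, 1362, 156 and 157. In the (+) Inhibitors libraries of the same animals they held 1641, 1942, 1595 and 1709 CPM. The 50 genes were chosen from these same libraries, and each was lower in all 4 animals. A lower sum in every animal therefore follows from that choice. Animal 1362 had the highest sum in both groups. The means were 11410 ± 2569 and 1722 ± 154 CPM. Because these are bulk libraries of a mixed suspension, fewer cells of a type and less RNA per cell cannot be told apart from these sums. Levels of cell type markers are given further on. The study estimated the makeup of cell types from RNA and reports no difference between Cell-Input with and without inhibitors.

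**Figure D2:**
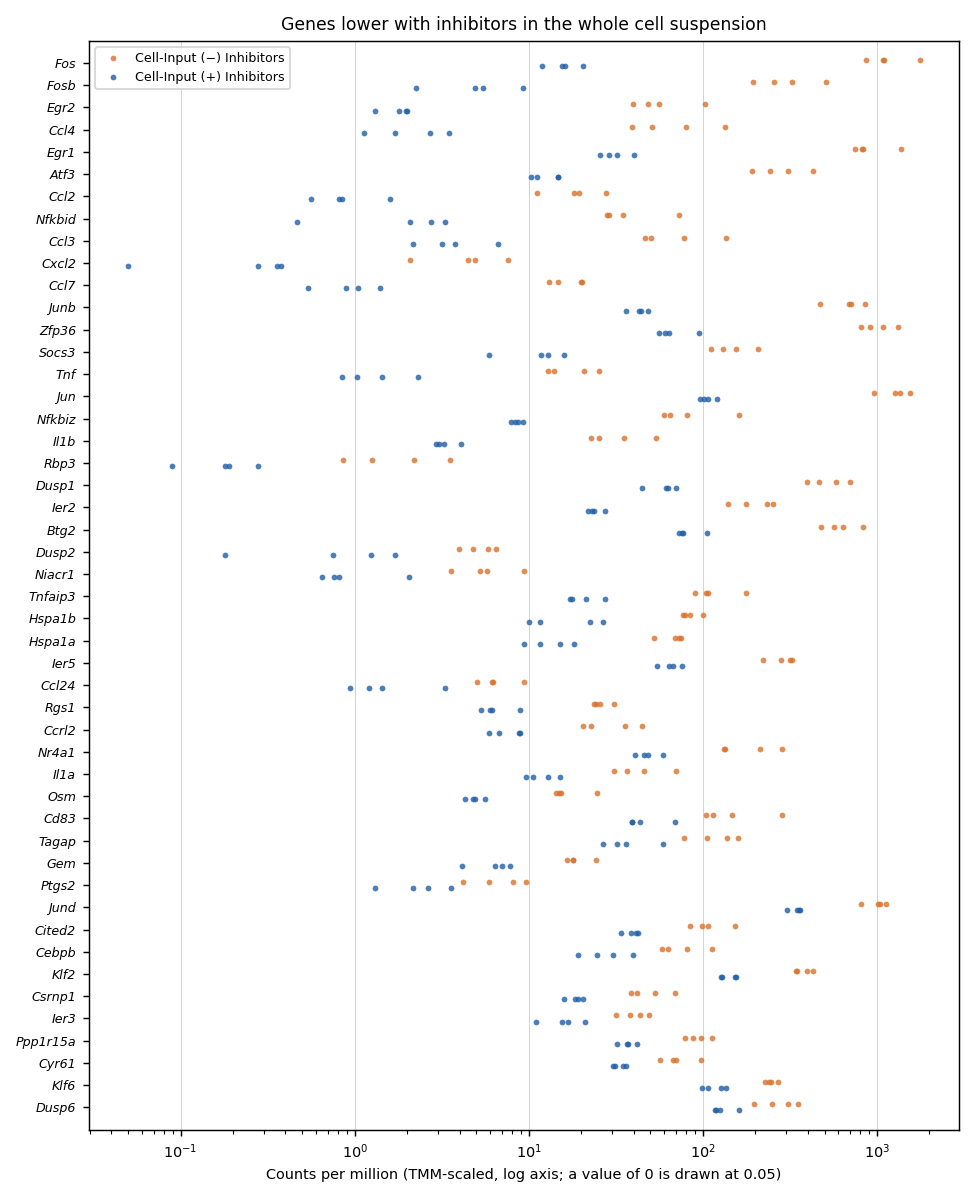
CPM (log axis, with a value of 0 drawn at 0.05) of 48 of the 50 called genes in each (−) Inhibitors (orange) and (+) Inhibitors (blue) Cell-Input library, n = 4 per group, with genes ordered by fold change. Blue and orange points do not overlap in any row, and the gap narrows from Fos at the top to Dusp6 at the bottom.

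The AP-1 factors, which bind DNA as dimers of Fos, Jun and Atf proteins, held the largest changes, in Fos and Fosb. Of 11 members tested, 6 fell (Fos, Fosb, Jun, Junb, Jund and Atf3) and 0 rose, and the list median was a log2 fold change of −1.53. For this list and those that follow, the share called lower over all genes tested was 0.338%. The lists were chosen with earlier results of these data known. Fos (chr12:85473901-85477270, mm10, plus strand) stood at 1103, 1763, 865 and 1089 CPM without inhibitors and at 15.5, 20.6, 11.9 and 16.1 CPM with them. Fos was lower in every animal by a similar factor, 74.1-fold over the 4 (log2 fold change −6.21 ± 0.12, FDR = 3.5e-07). Fosb was at 323, 509, 193 and 256 CPM without inhibitors and at 5.48, 4.90, 2.25 and 9.23 CPM with them. Its level thus fell 59.0-fold, and the animal with the lowest (−) Inhibitors value also had the lowest (+) Inhibitors value. Jun (chr4:95049036-95052222, minus strand) was at 1263, 1546, 955 and 1359 CPM without inhibitors and at 107, 120, 96.6 and 102 CPM with them. Jun fell 11.9-fold (log2 fold change −3.57 ± 0.12, FDR = 4.8e-06), and its (+) Inhibitors libraries differed little among themselves. Junb fell 15.6-fold, from 680 ± 157 to 42.8 ± 4.84 CPM. Atf3, a stress-induced repressor, fell 22.3-fold, from 293 ± 103 to 12.7 ± 2.32 CPM. Jund, which many cells express without a stimulus, fell by a smaller factor, from 996 ± 137 to 342 ± 25.4 CPM (log2 fold change −1.53 ± 0.12). Among the members that were not called, Fosl2 had a log2 fold change of −0.09 and Mafk of −0.18.

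Of the Egr and Nr4a factors, zinc-finger and orphan nuclear receptor proteins that are induced together with Fos, 3 of 9 tested fell and 0 rose, with a list median of −0.38. Egr1 was at 816, 1374, 749 and 835 CPM without inhibitors and at 29.0, 32.2, 25.6 and 40.0 CPM with them. The lowest (−) Inhibitors library was far above the highest (+) Inhibitors library, and the fall was 29.2-fold (log2 fold change −4.87 ± 0.18, FDR = 7.3e-06). Egr2 was at 48.5, 103, 56.3 and 39.7 CPM and fell 33.7-fold to 1.98, 1.96, 1.8 and 1.31 CPM. Nr4a1, also known as Nur77, was at 212, 283, 134 and 133 CPM without inhibitors and at 40.5, 46.1, 48.1 and 59.0 CPM with them. The (+) Inhibitors libraries of animals 1361 and 1362 were lowest although their (−) Inhibitors libraries were highest. The log2 fold change of Nr4a1 was −1.91 ± 0.24 (FDR = 0.013), and without animal 1361 it was −1.75 and was not called (FDR = 0.12). Egr3 was at 12.8 ± 4.17 CPM without inhibitors and 3.41 ± 1.87 CPM with them and did not pass the test (FDR = 0.28).

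The other early-response genes hold 33 tested members, of which 10 fell and 0 rose, with a list median of −0.60. The antiproliferative gene Btg2 was at 569, 826, 475 and 641 CPM without inhibitors and at 76.9, 106, 73.2 and 75.5 CPM with them, a fall of 7.51-fold (log2 fold change −2.91 ± 0.10, FDR = 6.2e-06). Ier2 fell 8.20-fold, from 201 ± 52.3 to 24.0 ± 2.45 CPM. Ier5 went from 286 ± 46.9 to 65.5 ± 8.87 CPM, a log2 fold change of −2.12 ± 0.09. These genes had narrow (+) Inhibitors groups, within which no animal stood far from the others except animal 1362 in Btg2. Krüppel-like factors fell by smaller factors, with Klf2, which is also among the endothelial markers, going from 379 ± 40.1 to 141 ± 15.1 CPM and Klf6 from 247 ± 18.8 to 118 ± 17.5 CPM. The remaining called members were Cebpb (−1.47), a transcription factor of the inflammatory response, Csrnp1 (−1.43), Ier3 (−1.35), Ppp1r15a (−1.34), which directs the dephosphorylation of eIF2α, and Cyr61 (−1.11), a secreted matrix protein, with log2 fold changes in parentheses. Without animal 1361 Cyr61 had a log2 fold change of −0.94 and so was under the fold threshold. Rhob, Klf4 and Btg1 of this list passed the FDR threshold at a fold of less than 2 (log2 fold changes −0.90, −0.83 and −0.60).

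**Figure D3:**
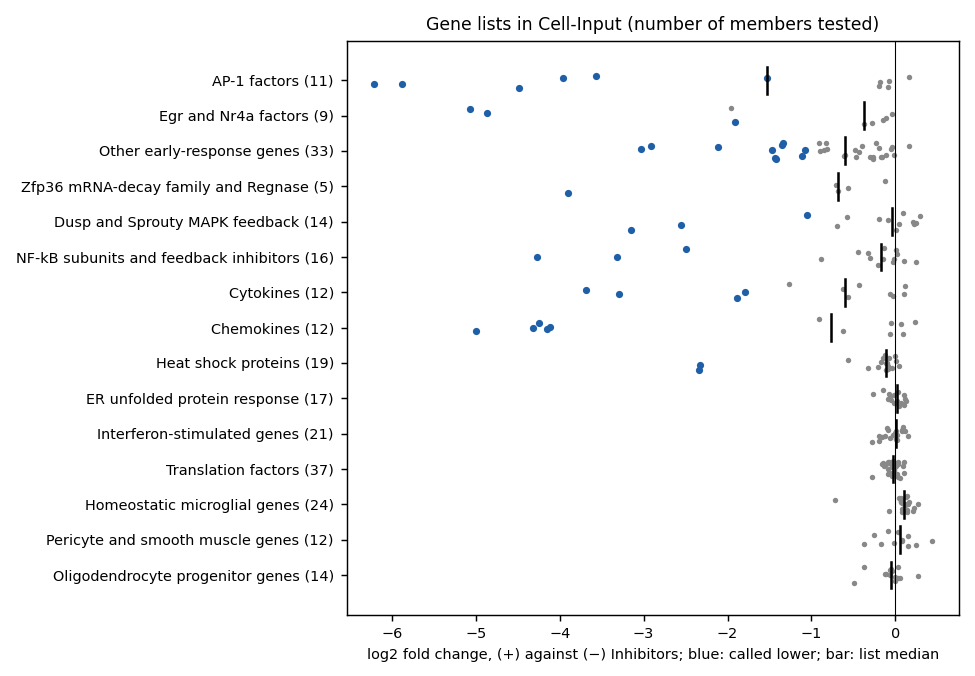
Log2 fold change of (+) against (−) Inhibitors in Cell-Input for the tested members of 15 gene lists, with each gene as a point, called genes in blue and the list median as a bar. Blue points are found in the upper 9 lists, and the lists from the ER unfolded protein response downward hold none.

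Proteins that end the early response formed the next group. Zfp36, also known as tristetraprolin, binds AU-rich elements and brings about decay of the mRNAs that hold them. Zfp36 (chr7:28376784-28379228, minus strand) was at 912, 1329, 806 and 1086 CPM without inhibitors and at 63.8, 95.4, 60.9 and 56.2 CPM with them, a fall of 15.0-fold (log2 fold change −3.91 ± 0.13, FDR = 4.8e-06). It was the only member called of the 5 tested in the Zfp36 and Regnase list, and Zfp36l1 passed the FDR threshold at a smaller fold (log2 fold change −0.69). Of the Dusp and Sprouty inhibitors of MAP kinase signalling, 3 of 14 tested fell (Dusp1, Dusp2 and Dusp6) and 0 rose, with a list median of −0.04. Dusp1 (chr17:26505591-26508472, minus strand) was at 463, 703, 398 and 581 CPM without inhibitors and at 62.9, 69.8, 44.9 and 61.5 CPM with them. Its fall of 8.87-fold was seen in all 4 animals (log2 fold change −3.15 ± 0.11, FDR = 6.2e-06). Dusp6 had the smallest change of all called genes, from 277 ± 67.8 to 131 ± 20.8 CPM (log2 fold change −1.06 ± 0.14, FDR = 0.021). It was not called without animal 156 (−1.05, FDR = 0.20) or without animal 157 (−0.89, FDR = 0.058). Dusp2 was near the detection limit, at 5.28 ± 1.12 and 0.968 ± 0.655 CPM, and was called with all 4 animals (FDR = 0.084) but not when any of them was left out. Without animals 1361, 1362, 156 and 157 in turn its FDR was 0.30, 0.15, 0.17 and 0.41.

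NF-κB is held in the cytoplasm by inhibitors that it induces itself. Of 16 tested NF-κB subunits and feedback inhibitors, 3 fell and 0 rose, with a list median of −0.18. Nfkbid was at 34.8, 72.8, 28.1 and 28.9 CPM without inhibitors and at 2.74, 3.30, 2.07 and 0.466 CPM with them, a fall of 19.3-fold. Nfkbiz, a nuclear IκB protein, fell 9.96-fold, from 91.7 ± 47.4 to 8.53 ± 0.566 CPM. Tnfaip3, the ubiquitin-editing enzyme A20, went from 120 ± 38.8 to 20.9 ± 4.72 CPM (log2 fold change −2.49 ± 0.11, FDR = 1.3e-05). The spread within (−) Inhibitors came in each of these genes from animal 1362, which was highest. Nfkbia passed the FDR threshold at a smaller fold, going from 251 ± 30.1 to 136 ± 18.1 CPM (log2 fold change −0.88 ± 0.10), and the subunit Rela had a log2 fold change of −0.01. Socs3, an inhibitor of Jak-Stat signalling, fell 13.2-fold and was the only called gene of 18 tested in the Socs and Jak-Stat list, whose median was 0.00345. Its levels were 131, 209, 111 and 155 CPM without inhibitors and 12.9, 15.9, 11.7 and 5.87 CPM with them.

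Of the cytokines, 4 of 12 tested fell (Tnf, Il1b, Il1a and Osm) and 0 rose, with a list median of −0.60. Tnf (chr17:35199391-35201996, minus strand) was at 20.7, 25.4, 12.8 and 14 CPM without inhibitors and at 0.850, 2.32, 1.44 and 1.03 CPM with them, a fall of 12.9-fold (log2 fold change −3.69 ± 0.27, FDR = 0.00043). Il1b was at 35.3, 53.7, 25.3 and 22.7 CPM and fell 9.83-fold to 2.93, 4.10, 3.06 and 3.26 CPM. The (+) Inhibitors libraries of Il1b lay close together, and those of Tnf were near the detection limit. Il1a went from 46.0 ± 17.2 to 12.1 ± 2.41 CPM (log2 fold change −1.88 ± 0.14). Osm, a cytokine of the IL-6 family, went from 17.3 ± 4.90 to 4.89 ± 0.522 CPM (log2 fold change −1.79 ± 0.21). Tgfb1 and Csf1, the most abundant cytokines that were not called, had log2 fold changes of 0.10 and −0.03.

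Of the chemokines, 5 of 12 tested fell (Ccl2, Ccl3, Ccl4, Ccl7 and Cxcl2) and 0 rose, with a list median of −0.76. Ccl4 (chr11:83662584-83664683, plus strand) was at 80.3, 134, 51.1 and 39.1 CPM without inhibitors and at 1.13, 3.47, 1.71 and 2.70 CPM with them, a fall of 31.9-fold (log2 fold change −5.00 ± 0.30, FDR = 0.00013). Ccl3 (chr11:83647843-83649378, minus strand) was at 77.5, 136, 50.1 and 46.8 CPM and fell 19.1-fold to 2.17, 6.68, 3.78 and 3.17 CPM. Animal 1362 had the highest value of both genes in both groups. These genes lie 13.2 kb apart, and Ccl2 and Ccl7, which lie 8.26 kb apart on the same chromosome, fell 20.0-fold and 17.4-fold. Ccl2 was at 19.1 ± 6.88 CPM without inhibitors and 0.956 ± 0.451 CPM with them. Ccl7 went from 17 ± 3.68 to 0.967 ± 0.356 CPM. Chemokine genes of a cluster are close in sequence, and reads could have been split between them. Cxcl2 rested on few reads, at 4.92, 7.58, 4.49 and 2.08 CPM without inhibitors and at 0.378, 0.356, 0 and 0.280 CPM with them, and it was not called without animal 1361 (log2 fold change −4.37, FDR = 0.16). The most abundant chemokines that were not called, Cxcl12 and Cx3cl1, had log2 fold changes of 0.24 and 0.07.

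The heat shock proteins had 19 members tested, of which 2 fell and 0 rose, and their median was −0.11. Hspa1a was at 72.5, 74.4, 52.6 and 68.8 CPM without inhibitors and at 9.36, 11.6, 15.0 and 18.3 CPM with them (log2 fold change −2.32 ± 0.20, FDR = 0.0013). Hspa1b went from 85.2 ± 10.3 to 17.7 ± 8.19 CPM (log2 fold change −2.34 ± 0.27, FDR = 0.0081). Both encode the inducible Hsp70 protein, lie 10.1 kb apart on chromosome 17 and are nearly identical in sequence, so the counts of each are uncertain. The constitutive chaperones Hspa8 and Hsp90ab1 had log2 fold changes of −0.16 and −0.15.

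Other called genes encode signalling proteins of diverse kinds. Rgs1, a regulator of G protein signalling, Ccrl2, an atypical chemokine receptor, and Cd83, a surface protein of activated myeloid cells, had log2 fold changes of −2.0 ± 0.19, −1.98 ± 0.15 and −1.69 ± 0.12. The groups of each of these genes were separate, with animal 1362 highest for Cd83 and Ccrl2 in (−) Inhibitors. Ptgs2, the cyclooxygenase COX-2, was at 6.96 ± 2.40 and 2.42 ± 0.943 CPM (log2 fold change −1.53 ± 0.26, FDR = 0.077). It was the only called gene of 11 tested for prostaglandin synthesis, and it was not called when any animal was left out, with FDRs of 0.23, 0.26, 0.60 and 0.39 without animals 1361, 1362, 156 and 157, nor without the block by animal (FDR = 0.24).

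Of the 50 called genes, 44 belong to at least 1 gene list used here, and 6 belong to none. Tagap, a GTPase-activating protein of lymphoid and myeloid cells that has a paralog, Tagap1, with which reads could be shared, was at 77.6, 159, 106 and 137 CPM without inhibitors and at 26.6, 58.8, 36 and 32.3 CPM with them. Cited2, a coregulator of CBP and p300, went from 111 ± 29.5 to 39.1 ± 3.90 CPM (log2 fold change −1.47 ± 0.12). Gem, a small GTP-binding protein, went from 19.2 ± 3.45 to 6.35 ± 1.59 CPM (log2 fold change −1.61 ± 0.18). The remaining genes were low in both groups. Niacr1, a niacin receptor, went from 5.99 ± 2.47 to 1.07 ± 0.658 CPM, and the chemokine Ccl24 from 6.71 ± 1.89 to 1.72 ± 1.07 CPM. Ccl24 was not called without animal 1361, 156 or 157 (FDR = 0.22, 0.20 and 0.28). Rbp3, a retinoid-binding protein known from the retina, was at 3.54, 1.26, 0.855 and 2.18 CPM without inhibitors and at 0.189, 0.0891, 0.180 and 0.280 CPM with them. Its log2 fold change was −3.26 ± 0.52 (FDR = 0.060), and it was not called when any animal was left out (FDR from 0.17 without animal 1362 or 156 to 0.32 without 157 and 0.54 without 1361). In an earlier deposited table of the same libraries its log2 fold change was −1.49 (FDR = 0.50).

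A further 13 genes fell by less than 2-fold at FDR under 0.1, so that 63 genes in all passed this threshold in the downward direction (0.426%). They included Cd14, the coreceptor for lipopolysaccharide, which was just outside the fold threshold (log2 fold change −0.96 ± 0.12, against −1.06 for Dusp6 just inside). Cebpa, a transcription factor of the myeloid lineage, went from 295 ± 76.9 to 163 ± 20.6 CPM. Others were Rhob, Nfkbia, Klf4, Txnip, Bcl2a1b, Tgif1, Zfp36l1, Rgs2 and Btg1, with log2 fold changes from −0.90 to −0.60. Bcl2a1b has close paralogs with which its reads could be shared.

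Of 41 gene lists with a tested member, 25 held no called gene. Over all genes tested 0.338% were called, so 0 called in a list of few genes is near that share. Some genes belong to more than 1 list. The lists of the ER unfolded protein response (17 genes tested, median 0.0195), the Atf4 integrated stress response (17, −0.000774), Nrf2 antioxidant genes (16, −0.0417), the hypoxia response (13, −0.0764) and interferon-stimulated genes (21, 0.00647) had 0 genes called. The stress-response genes Atf3 and Ppp1r15a were called, but they were counted in other lists and not in that of the Atf4 response. The 95% intervals of all 17 genes of the unfolded protein response, all 16 Nrf2 genes and all 21 interferon-stimulated genes were within 2-fold either way. Over all genes tested this held for 84.8%. Anisomycin acts on the ribosome, and the transcripts of translation factors (37 tested, median −0.0302) and of cytosolic ribosomal proteins (76 tested, −0.0441) also had 0 called, with every interval within 2-fold. Eef2, the elongation factor for translocation, had a log2 fold change of −0.04 ± 0.10. Neuronal activity-regulated genes had 0 of 11 called and a median of −0.00246, and Arc had a log2 fold change of −0.24. This list does not hold Fos, Fosb, Egr1, Egr2 or Nr4a1, which were called and counted in other lists. Nuclear long noncoding RNAs had 0 of 13 called and a median of −0.26. Malat1 and Neat1 had log2 fold changes of −0.26 ± 0.28 and −0.52 ± 0.18, and only 8 of these 13 intervals were within 2-fold.

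The makeup of the suspensions was read from marker genes. The marker lists of the study, drawn from earlier published data, hold 282 microglial genes tested, of which 21 were called lower and 0 higher (7.45%, against 0.338% of all genes), with a list median of 0.0563. The 21 included Ccl2, Ccl3, Ccl4, Ccl7, Tnf, Il1a, Osm, Zfp36, Btg2, Atf3 and Junb, which other lists also hold. Of 24 homeostatic microglial genes 0 were called, and P2ry12, Tmem119, Cx3cr1 and Csf1r had log2 fold changes of 0.27, 0.14, 0.14 and 0.14. The 24 genes summed to 16530 to 23961 CPM without inhibitors and 19153 to 25744 CPM with them, and the whole microglial list to 44905 to 62526 and 47417 to 64735 CPM. Of 138 astrocytic, 194 oligodendrocytic and 96 neuronal markers 0 were called, and of 235 endothelial markers 1 was called, Klf2. The medians of these lists were −0.0365, 0.127, 0.00233 and 0.0728. The ranges of the summed levels without and with inhibitors overlapped for astrocytic markers (41714 to 65357 and 47719 to 58500 CPM), oligodendrocytic markers (43218 to 61827 and 49851 to 64345 CPM), neuronal markers (2480 to 4024 and 2068 to 4192 CPM) and endothelial markers (19252 to 23691 and 18486 to 26416 CPM). Blood cell transcripts were at 8869 to 21255 CPM without inhibitors and 9937 to 26142 CPM with them, border-associated macrophage genes at 375 to 731 and 450 to 737 CPM, and ependymal and choroid plexus genes at 11729 to 18072 and 5382 to 20268 CPM. None of the defining markers of these cell types that was listed was at 0, none was called, and Acta2 was not listed. Only 53 of the 96 neuronal intervals were within 2-fold either way, compared with 253 of the 282 microglial ones.

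Several features of gene structure were compared between the 50 called genes and the 14042 tested genes with an annotated transcript, as a description without a test. All 50 were protein-coding. The called genes had a median of 3 exons and a gene span of 3250.5 bases, against 9 exons and 23007.5 bases for all tested genes. A span under 5 kb was found for 32 of the 50 (64%) and for 11.8% of all tested. Genes with only 1 exon made up 11 of the 50 (22%), among them Jun, Junb, Jund, Ier2, Ier5, Hspa1a and Hspa1b, and 2.41% of all tested. The nonamer TTATTTATT, the core of an AU-rich element, occurred in the 3′ UTR of 11 of the 50 (22%) and of 7.32% of all tested, although the median 3′ UTR of the called genes was shorter (815.5 against 1031 bases). At least 3 copies of ATTTA were in the 3′ UTR of 27 of the 50 (54%) and of 35.4% of all tested.

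The AU-rich elements of 6 of these 11 genes are shown, since Zfp36, itself lower, binds such elements and Tnf, Cxcl2 and Ptgs2 are textbook examples of transcripts that hold them. Each line gives 25 bases of the 3′ UTR in the direction of transcription, on mm10, with the nonamer in capitals.
Fos, chr12:85477105-85477129, plus strand: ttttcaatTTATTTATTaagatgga
Tnf, chr17:35199691-35199715, minus strand: tgcacttaTTATTTATTatttattt
Zfp36, chr7:28376953-28376977, minus strand: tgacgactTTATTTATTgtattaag
Cxcl2, chr5:90905318-90905342, plus strand: gagttcacTTATTTATTtatctatg
Dusp1, chr17:26506161-26506185, minus strand: gctggtccTTATTTATTtaacaccc
Ptgs2, chr1:150105792-150105816, plus strand: gaccatatTTATTTATTtatgtgaa
In Tnf the nonamer occurred 5 times and ATTTA 8 times over the 3′ UTR, in Cxcl2 4 and 11 times, and in Ptgs2 1 and 14 times. The 6 genes fell by factors between 2.90-fold for Ptgs2 and 74.1-fold for Fos.

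Promoters of 4 called genes of different roles are shown, chosen after the search because between them they hold matches to several kinds of regulatory element. Each is the RefSeq window on GRCm38.p6 from 250 bases before to 50 bases after the annotated start, in the direction of transcription, with motif matches in capitals.
Fos, chr12:85473640-85473939, plus strand: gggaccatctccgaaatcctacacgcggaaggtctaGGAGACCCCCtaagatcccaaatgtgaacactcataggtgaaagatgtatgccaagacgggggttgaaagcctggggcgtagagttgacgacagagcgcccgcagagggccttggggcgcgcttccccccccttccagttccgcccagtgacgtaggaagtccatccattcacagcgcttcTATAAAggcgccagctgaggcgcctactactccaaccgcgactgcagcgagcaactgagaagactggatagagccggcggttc
Tnf, chr17:35201958-35202257, minus strand: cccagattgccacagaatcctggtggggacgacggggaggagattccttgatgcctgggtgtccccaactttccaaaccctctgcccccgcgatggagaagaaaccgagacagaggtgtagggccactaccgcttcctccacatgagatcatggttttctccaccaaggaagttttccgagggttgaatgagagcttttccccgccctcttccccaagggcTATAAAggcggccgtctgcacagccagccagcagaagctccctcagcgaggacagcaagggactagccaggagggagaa
Zfp36, chr7:28379179-28379478, minus strand: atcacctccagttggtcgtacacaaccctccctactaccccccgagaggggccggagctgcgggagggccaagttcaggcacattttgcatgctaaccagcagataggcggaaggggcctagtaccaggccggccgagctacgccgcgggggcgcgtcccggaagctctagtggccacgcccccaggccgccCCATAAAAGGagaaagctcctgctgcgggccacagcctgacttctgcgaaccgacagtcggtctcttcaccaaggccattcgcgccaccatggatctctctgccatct
Dusp1, chr17:26508423-26508722, minus strand: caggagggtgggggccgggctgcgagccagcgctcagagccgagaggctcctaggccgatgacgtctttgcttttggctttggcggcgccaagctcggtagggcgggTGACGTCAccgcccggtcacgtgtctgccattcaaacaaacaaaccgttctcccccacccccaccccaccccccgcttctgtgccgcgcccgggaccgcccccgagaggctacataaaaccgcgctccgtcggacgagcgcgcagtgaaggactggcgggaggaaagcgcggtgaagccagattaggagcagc
The window of Fos held an NF-κB match 214 bases and a TATA box (TATAAA, searched on the transcribed direction only) 33 bases upstream of the start. That of Tnf held a TATA box 29 bases upstream, that of Zfp36 a CArG box, the element bound by serum response factor, 58 bases upstream, and that of Dusp1 a cyclic AMP response element (TGACGTCA) 143 bases upstream. Apart from the TATA box, motifs were searched on both strands. Of the 11637 tested genes with such a window, 12.7% held an NF-κB match, 5.71% a TATA box, 1.57% a CArG box and 3.45% the cyclic AMP response element. Only 36 of the 50 called genes had a window, so the share of called genes with a motif was not used.

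Levels in Cell-Input were then set beside those in Tissue-Input, from tissue homogenized directly in lysis buffer, and Dounce-Input, from cells freed mechanically in the cold without enzymes and cleared on a Percoll gradient, n = 4 each, with all 16 Input libraries on a common TMM scale. Tissue-Input came from animals 946, 947, 948 and 949 and Dounce-Input from animals 179, 180, 181 and 182, none of which gave a Cell-Input library of the inhibitor experiment. The study states that RNA of Dounce-Input took an entire brain and that of the other preparations a hemisphere. The study also reports that RNA integrity and RNA yield were lowest in Dounce-Input. Coverage along the gene body was more skewed in Tissue-Input and Dounce-Input than in Cell-Input. Animals, amounts of tissue, RNA quality and the cell types present thus differ between preparations, so the values are given side by side and without a test. The 50 genes summed to 1339 to 1672 CPM in Tissue-Input and to 784 to 962 CPM in Dounce-Input. On this scale the (−) Inhibitors mean was above the Tissue-Input mean for all 50 genes and above the Dounce-Input mean for 49, with Ptgs2 the exception. The (+) Inhibitors mean was above the Tissue-Input mean for 36 genes and below it for 14. For 31 genes every (+) Inhibitors library was above every Tissue-Input library, for 11 every one was below, and for 8 the groups overlapped. The 50 genes were chosen from these same Cell-Input libraries, as higher without inhibitors than with them. These counts in part follow from that choice. The same counts were not taken over all genes tested. In the sort comparison described further on, 26.1% of all genes tested were called higher in Cell-Input than in Tissue-Input. The counts against Tissue-Input and Dounce-Input therefore cannot be read as particular to the 50 genes.

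**Figure D4:**
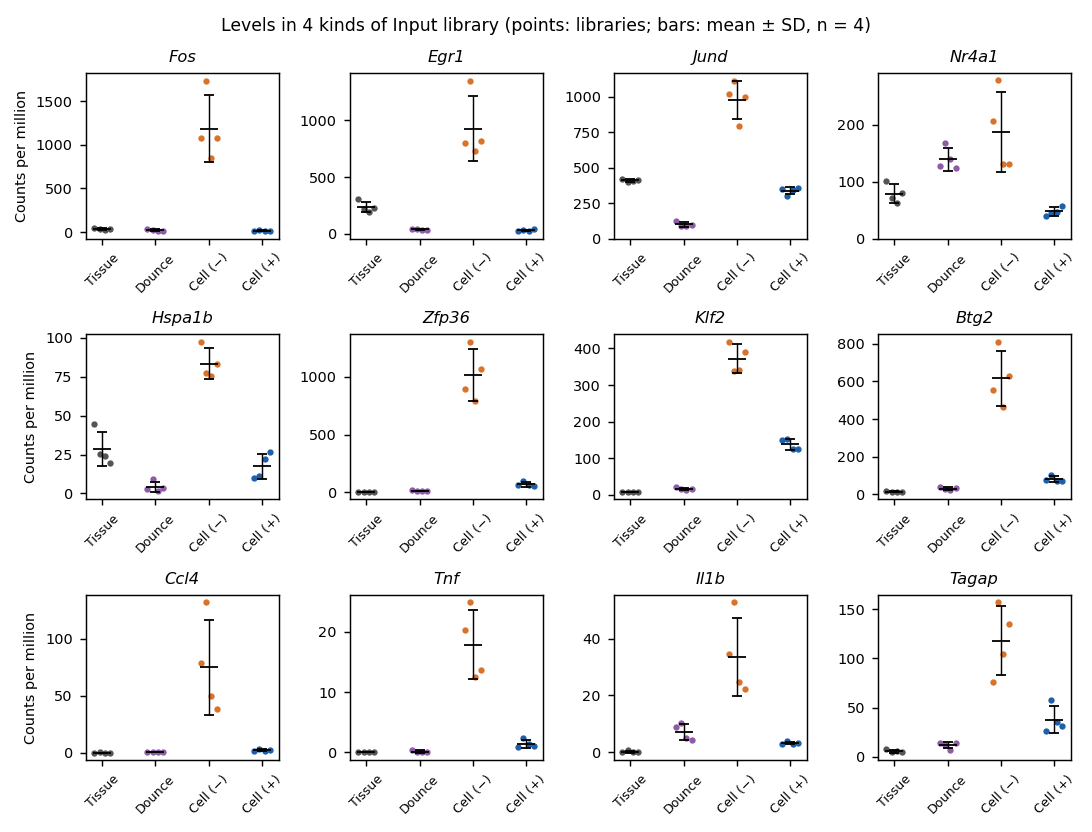
CPM of 12 called genes in Tissue-Input, Dounce-Input and Cell-Input without (−) and with (+) inhibitors, on linear axes, with each library as a point and bars for the mean ± SD, n = 4. Fos, Egr1, Jund and Nr4a1 with inhibitors lie below Tissue-Input, while Zfp36, Klf2, Btg2 and Tagap lie above it.

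The 11 genes that were below Tissue-Input in every (+) Inhibitors library were Fos, Fosb, Egr1, Egr2, Junb, Jund, Nr4a1, Ier5, Hspa1a, Cited2 and Ptgs2. Egr1, which neurons also express, was at 197 to 304 CPM in Tissue-Input, at 735 to 1349 CPM in (−) Inhibitors and at 25.2 to 39.3 CPM in (+) Inhibitors, with 35.9 to 46.7 CPM in Dounce-Input. Fos was at 25.4 to 49.8 CPM in Tissue-Input and at 11.7 to 20.2 CPM in (+) Inhibitors. The study reports fewer neuronal transcripts in Cell-Input, with and without inhibitors, than in Tissue-Input. In the sort comparison described further on, 1 of 96 neuronal and 271 of 282 microglial markers were higher in Cell-Input than in Tissue-Input. The part of cell types in these levels was not tested. The 31 genes above Tissue-Input included Ccl2, Ccl3, Ccl4, Ccl7, the 4 called cytokines, Zfp36, Socs3, Klf2, Btg2 and Dusp1. Zfp36 was at 3.59 to 5.90 CPM in Tissue-Input and at 55.2 to 93.8 CPM in (+) Inhibitors. Klf2 was at 8.31 to 9.37 CPM in Tissue-Input, at 15.0 to 21.5 CPM in Dounce-Input and at 125 to 152 CPM in (+) Inhibitors. Tnf was listed at 0 in all 4 Tissue-Input libraries and reached 0.413 CPM in Dounce-Input, against 0.836 to 2.28 CPM in (+) Inhibitors. Il1b was higher in Dounce-Input, at 4.44 to 10.1 CPM, than in (+) Inhibitors, at 2.88 to 4.03 CPM.

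Whether the inhibitor effect differed between Input and the ribosome-bound RNA of Cx3cr1-tagged cells (Cell-TRAP, pulled down from the same suspensions) was tested over 16 libraries with the suspension as a block. Of 14930 genes tested, the effect was lower in TRAP for 51 (0.342%) and higher for 2 (0.0134%), at FDR under 0.1 and a difference above 2-fold. Of the 50 genes called in Input, 21 (42%) fell by more in TRAP, 0 fell by less and 29 did not pass the test. The sign of the difference was lower in TRAP for 44 of the 50, and for 56.6% of all genes tested. In TRAP alone 49 of the 50 genes were tested and all 49 fell, where 135 of 13334 genes (1.01%) were called lower.

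**Figure D5:**
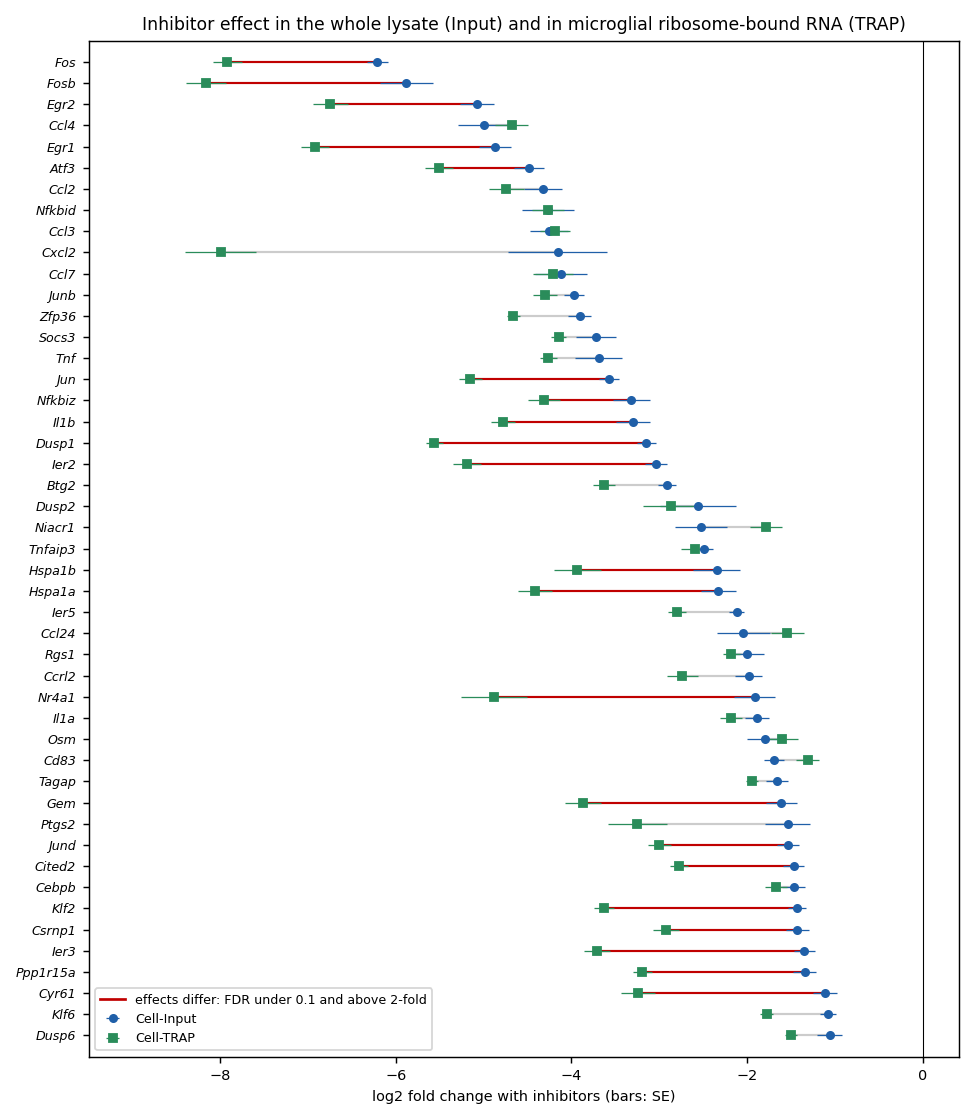
Log2 fold change of (+) against (−) Inhibitors in Cell-Input (blue circles) and Cell-TRAP (green squares) with SE bars for 47 of the 49 called genes tested in both, joined in red where the effects differed at FDR under 0.1 and by more than 2-fold. Red lines join 21 genes, in all of which the TRAP value is the lower, while Ccl3, Ccl4 and Tnfaip3 have nearly the same value in both.

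Levels in each fraction were scaled within that fraction. Among the 21 genes the largest differences were in Nr4a1, Dusp1, Ier3, Fosb, Klf2, Gem and Ier2. Dusp1 went from 1992 ± 435 to 42.2 ± 9.31 CPM in TRAP, with a difference between the effects of −2.44 on the log2 scale (FDR = 2.4e-06). Nr4a1 went from 428 to 12.2 CPM in TRAP, a mean below the 48.4 CPM of the (+) Inhibitors Input libraries, with a difference of −3.01 (FDR = 2.7e-05). Klf2 went from 1037 to 84.3 CPM (−2.23), Ier2 from 646 to 17.2 CPM (−2.19) and Fos from 4438 ± 1313 to 18.1 ± 4.87 CPM (−1.75). For these genes the (−) Inhibitors level was higher in TRAP than in Input, while the (+) Inhibitors level was lower or similar. The chemokines Ccl3 and Ccl4 had differences of 0.03 and 0.28, with FDRs of 1.00 and 0.73. The effect on Ccl3 was 19.1-fold in Input, and in TRAP its level went from 259 ± 145 to 13.4 ± 4.22 CPM. Tnf (−0.61, FDR = 0.51), Tnfaip3 (−0.14, FDR = 0.86) and Cd83 (0.35, FDR = 0.26) likewise did not pass the test. Without animal 1361 the number of genes lower in TRAP was 31 in all and 17 among the 50, without 1362 it was 28 and 19, and without 157 it was 33 and 20. Without the block by suspension it was 33 and 15, where Fosb, Hspa1b, Egr2, Il1b, Atf3 and Nfkbiz did not pass the test.

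The sort comparison of the study, for whose suspensions no inhibitors are stated, shares no animal and no library with the inhibitor effect. Its Cell-Input and Tissue-Input libraries came from animals 946 to 949, the animals that also gave the separate Tissue-Input libraries described above, so the tissue levels of both sets are not independent. There 4027 of 15435 genes tested (26.1%) were higher in Cell-Input than in Tissue-Input. Of the 50 called genes, 43 (86%) were higher and 0 lower in Cell-Input, and the 43 were 1.07% of the 4027. Their median log2 difference, over all 50, was 3.65, against 0.0183 over all genes tested. Fos was at 720 to 1033 CPM in Cell-Input and at 26.1 to 54.6 CPM in Tissue-Input (log2 difference 4.45 ± 0.14). Zfp36 was at 703 to 965 CPM against 3.76 to 18.5 CPM, Btg2 at 467 to 611 CPM against 14.3 to 23.4 CPM, and Il1a at 33.5 to 61.0 CPM against 0.330 to 0.705 CPM. Markers of cell types moved in the same comparison, with 271 of 282 microglial, 218 of 235 endothelial and 109 of 138 astrocytic markers higher in Cell-Input and 1 of 96 neuronal markers higher, and their part in the result was not tested. The 7 genes that were not called there were Rbp3, Dusp2, Hspa1a, Nr4a1, Ptgs2, Cited2 and Jund. Nr4a1 was at 71.1 to 140 CPM in Cell-Input and at 62.4 to 82.7 CPM in Tissue-Input (log2 difference 0.43 ± 0.14). Jund was at 663 to 826 against 331 to 377 CPM and lay at the fold threshold (log2 difference 1.00 ± 0.08). Without animal 946 Hspa1b and Cd83 were no longer called (log2 differences 1.00 and 0.99), while Jund and Rbp3 were (1.03 and 1.61).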

How the data were processed

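Poly(A) RNA of 8 Cell-Input libraries was compared, with 8 Cell-TRAP, 4 Tissue-Input, 4 Dounce-Input and 8 sort-comparison libraries beside them. The authors trimmed directional reads, aligned them to mm10 in Strand NGS, removed duplicates and deposited expected counts per gene, of which 19.4% were whole numbers in the columns used. The authors also deposited log2 values, which they normalized with DESeq2's method and baselined to Tissue-Input, and these were used only with limma. Genes enter these tables only if all samples of some group exceed 5 reads, and 23 symbols that had become dates were restored from their gene identifiers. A further 32 value columns of the main table were not used.

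Expected counts were rounded to whole numbers, kept where all libraries of either group compared exceeded 5 counts, scaled by TMM and tested with edgeR 4.0.16 (quasi-likelihood, R 4.3.3), with the animal as a block. Both libraries of a pair carry the same animal number. Over 10799 genes of at least 10 CPM, deviations from the group means correlated at −0.0386 to 0.160 within animals and −0.176 to 0.136 between them. DESeq2 1.42.0 and limma 3.58.1 were alternatives. The paired model of Cell-Input and the model of the difference between Input and TRAP were tested on simulated counts, and the other models were not. The study states an analysis of variance without a block, which was not run. The quasi-likelihood test without a block was run as an alternative. The paired fit of the Cell-TRAP libraries was added after the other tests were fixed, and its values and calls are given as a description. P-values of the main tests describe the spread, over 4 animals, of the differences within animals, or within suspensions where Input and TRAP were compared.

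The genes and lists were chosen with earlier results of these data known. Some genes are not reported here. The called genes are otherwise all named, which goes beyond the rule of 15 per direction and 5 called per list, and those outside that rule were named after their values were seen. Sequences come from RefSeq windows and the GENCODE annotation of GRCm38. A gene counted only a few times has little precision, and reads carry no molecular identifiers, so depth limits Rbp3, Cxcl2, Dusp2, Niacr1 and Ccl24 most.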

Additional observations from a re-analysis of the deposited data

Results flagged for a closer look

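In 7 of the 100 groups checked, 2 for each of the 50 called genes, the highest library lay further from the others than Dixon's criterion at the 95% level allows, and chance gives about 1 in 20 such groups. In all 7 the library was of animal 1362. In (−) Inhibitors, Egr1 was at 1374 CPM against 749 to 835 in the other animals, Nfkbid at 72.8 against 28.1 to 34.8, Osm at 24.6 against 14.3 to 15.3 and Gem at 24.3 against 16.7 to 17.9. In (+) Inhibitors, Btg2 was at 106 CPM against 73.2 to 76.9, Niacr1 at 2.05 against 0.653 to 0.809 and Cd83 at 69.6 against 39.1 to 43.7. All 7 genes were also called without animal 1362.

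The inhibitor effect differed between Cell-TRAP and Cell-Input, by the interaction test, for 21 called genes. The difference of log2 effects (TRAP minus Input) was −3.01 for Nr4a1, −2.44 for Dusp1, −2.39 for Ier3, −2.32 for Fosb, −2.23 for Klf2, −2.22 for Gem, −2.19 for Ier2, −2.17 for Cyr61, −2.15 for Hspa1a and −2.08 for Egr1. It was −1.87 for Ppp1r15a, −1.75 for Fos, −1.69 for Hspa1b, −1.64 for Egr2, −1.61 for Jun, −1.52 for Csrnp1, −1.49 for Jund, −1.36 for Il1b, −1.33 for Cited2, −1.06 for Atf3 and −1.0 for Nfkbiz. Of these, Egr2, Il1b, Gem, Atf3 and Nfkbiz were not called when certain animals were left out. Without animal 1361 the difference of Gem was −1.91 (FDR = 0.15), that of Nfkbiz −0.87, that of Egr2 −1.41 (FDR = 0.15) and that of Il1b −1.38 (FDR = 0.33). Without animal 1362 the difference of Atf3 was −0.99 and that of Egr2 −1.47 (FDR = 0.18). Without animal 156 those of Egr2 and Il1b were −1.78 and −1.25 (FDR = 0.11 and 0.19), and without animal 157 that of Il1b was −1.43 (FDR = 0.20). Without the block by suspension Fosb (−2.38, FDR = 0.11) and Hspa1b (−1.65, FDR = 0.20) were not called, nor were Egr2, Il1b, Atf3 and Nfkbiz.

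Among genes not called in Cell-Input, the NF-κB inhibitor Nfkbia (−1.35), the kinase Sgk1 (−1.41) and the glucocorticoid-induced gene Tsc22d3 (−1.04) had lower effects in TRAP. The hemoglobin transcripts Hba-a1 (−1.38), Hbb-b1 (−1.84) and Beta-s (−1.77) did so too, at TRAP levels without inhibitors of 175 ± 170, 85.9 ± 97.1 and 91.5 ± 101 CPM, with SDs about as large as the means. Alb (1.14) and Cib2 (1.30) were the only genes with a higher effect in TRAP. Without animal 157, Hba-a1, Hbb-b1, Beta-s, Alb and Cib2 were not called (differences of −1.52, −2.07, −1.95, 1.15 and 1.24, with FDRs of 0.20, 0.22, 0.22, 0.15 and 0.20). Without animal 1362, Tsc22d3 (−0.89) was under 2-fold and Hba-a1, Hbb-b1, Beta-s and Cib2 were not called (−1.40, −1.77, −1.67 and 1.18). Without animal 1361, Hba-a1 and Cib2 (−1.61 and 1.38), and without animal 156, Alb (1.01), were not called.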

How the results depend on the processing

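The count of genes lower in Cell-Input with inhibitors was between 42 (at least 10 counts in every library) and 53 (DESeq2) over the alternatives and between 43 (without animal 1361) and 51 when 1 animal was left out, with 0 genes higher in each. It was 51 without the block by animal, where Ptgs2 lost its call. Of the 50 genes, 35 were called under every alternative, and none changed direction in 592 values. The call was lost in 32 of these, for 11 genes, namely Rbp3, Ptgs2, Dusp2, Ccl24, Dusp6, Nr4a1, Cyr61, Cxcl2, Niacr1, Osm and Rgs1. Tnf, Ccl2, Nfkbid and Ccl7 were not tested where at least 10 counts in every library were asked for. Limma gave Osm an FDR of 0.12, Rgs1 0.12, Nr4a1 0.13, Cyr61 0.23, Dusp6 0.25 and Dusp2 0.26. Niacr1 (FDR = 0.27) lost its call only over all 16 Input libraries without a block. With at least 10 counts in every library, the list medians of the chemokines (−0.05) and cytokines (−0.24) were nearer 0, since low members were not tested. The count of genes with a lower effect in TRAP was 33 without the replicate block and 28 to 41 when an animal was left out, and that with a higher effect was 1 without the block, 4 with DESeq2 and 0 to 3 when an animal was left out. The cause was not tested. In the sort comparison 3128 to 4048 genes, and 30 to 44 of the 50, were higher. Counting depth limits genes under about 10 CPM.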

Other observations

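Of the 51 genes whose inhibitor effect was lower in TRAP than in Input, 30 were not called in Input, and those named here were chosen among them after their values were seen. The number not called in Input was 14, 9, 22 and 13 without animals 1361, 1362, 156 and 157, and 18 without the block by suspension. Of the 30 genes 13, 7, 18 and 11 passed the test without these animals. Linker histone transcripts were in this group. Hist1h1c went from 209 ± 64.1 to 32.4 ± 4.87 CPM in TRAP and had 157 and 118 CPM in Input, a difference of effects of −2.26 (FDR = 8.4e-05). Hist1h1e and Hist1h1d, both low, had differences of −2.31 and −2.99. Hist1h1c passed the test whichever animal was left out, whereas Hist1h1d lost its call each time, with FDRs of 0.16 to 0.22, and Hist1h1e passed only without animal 156 (FDR = 0.087). Replication-dependent histone mRNAs lack a poly(A) tail, and poly(A) libraries count them incompletely. Early-response genes in the group were Klf4, which went from 202 ± 72.4 to 36.4 ± 8.36 CPM in TRAP (difference −1.64), Egr3, from 29.6 ± 18.2 to 1.12 ± 0.652 CPM (−2.67), and Gadd45b, from 34.1 ± 24.0 to 3.95 ± 0.887 CPM (−2.11). Spry1, an inhibitor of receptor tyrosine kinase signalling, went from 56.4 ± 15.4 to 15.0 ± 1.77 CPM in TRAP (−1.34). In Input these had log2 fold changes of −0.83 for Klf4, −1.95 for Egr3, −0.85 for Gadd45b and −0.57 for Spry1, of which that of Klf4 passed the FDR threshold. Klf4, Egr3, Gadd45b and Spry1 kept the call on the difference whichever animal was left out, and Egr3 lost it without the block (−2.81, FDR = 0.13).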
